A study of Mus musculus with 2 samples.

Results

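The genes described here are 10 nuclear genes whose proteins switch on mitochondrial biogenesis or read and copy mitochondrial DNA. They were Ppargc1a, Ppargc1b, Pprc1, Nrf1, Tfam, Tfb1m, Tfb2m, Polrmt, Polg and Twnk. The choice was by name from the gene symbols in the files and not by any measured value. Earlier results of these data were known when it was made. All 10 were found among the 55536 Ensembl genes of the deposited gene tables. The samples were 2 hearts of male B6CASTF1/J mice, an F1 hybrid strain from The Jackson Laboratory, aged 2 months. No treatment or engineered allele is named, and the hearts form 1 group, so no contrast between conditions exists. Total RNA was sequenced from 300 ng per heart with ribosomal RNA reduced and ERCC spike-in RNAs added. The 2 hearts carry the numbers 1 and 2 as biological replicates in the labels and come from males numbered separately, although the donor entry is the same for both.

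The PGC-1 proteins are coactivators: they bind no DNA themselves but dock on transcription factors and recruit enzymes that open chromatin. NRF1, GABP and the estrogen-related receptors are such partners, and they bind promoters of respiratory chain genes and of the genes that serve mitochondrial DNA. Inside the mitochondrion TFAM packages the DNA and bends its promoters, TFB2M opens them, and the RNA polymerase POLRMT transcribes them. TFB1M methylates the small ribosomal RNA. TWNK, the Twinkle helicase, unwinds the DNA ahead of POLG, the catalytic subunit of the mitochondrial DNA polymerase. Heart muscle is among the tissues richest in mitochondria.

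Levels are given in TPM (transcripts in proportion to a fixed total, corrected for length) which allows genes to be compared within a library. All 10 genes reached 1 TPM in both hearts, a level reached by 49.8% of the 22015 nuclear protein-coding genes. Their means over the 2 hearts spanned 4.01 to 46.3 TPM, and 7 of the 10 lay above 8.73 TPM, the median of the 10957 nuclear protein-coding genes detected in both hearts. Ppargc1a was highest, above 88.8% of those detected genes, and Tfb1m lowest, above 26.4% of them. Behind these levels stood 155 to 4540 expected counts per gene in replicate 1 and 195 to 5785 in replicate 2, out of totals of 39177981 and 44544839. In a whole heart, fewer cells of a type and less RNA per cell cannot be told apart.

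From the top, the order of the means was Ppargc1a, Tfam, Polg, Tfb2m, Polrmt, Ppargc1b, Twnk, Pprc1, Nrf1 and Tfb1m. The hearts' values overlapped between Tfam and Polg, between Polg and Tfb2m, between Ppargc1b and Twnk, and between Pprc1 and Nrf1, so those neighbours did not differ beyond the spread between hearts. Within each library, however, Tfam was above Polg, Polg above Tfb2m and Ppargc1b above Twnk in both hearts, while Pprc1 and Nrf1 changed places. The other 5 neighbouring pairs did not overlap. The order also depended on which annotated transcripts were counted. Summed over transcripts of at least 1000 bases only, Tfam moved from position 2 to position 7 and Tfb2m from 4 to 2, while Ppargc1a stayed first and Tfb1m last. In the second table the first 7 kept their order, and Nrf1, Tfb1m and Pprc1 followed, so that Pprc1 was the lowest.

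**Figure D1:**
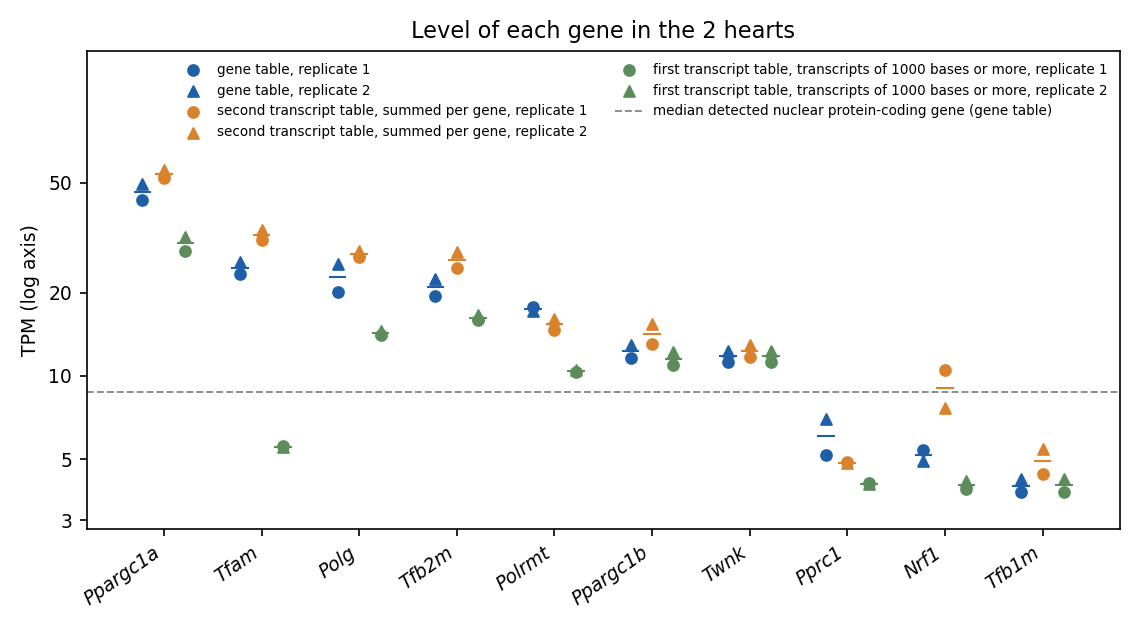
TPM of each gene (log axis) in replicate 1 (circles) and replicate 2 (triangles), from the gene table (blue), the second transcript table summed per gene (orange) and the transcripts of at least 1000 bases in the first transcript table (green); short bars are means and the dashed line is the median detected nuclear protein-coding gene, 8.73 TPM. Ppargc1a is highest in all 3, and Tfam falls from a mean of 24.6 to 5.55 TPM when short transcripts are left out.

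Ppargc1a encodes PGC-1alpha, the member of the family that responds to cold, fasting and exercise. The gene lies on the minus strand at chr5:51454250-51567726 (mm10). Its level was 43.1 TPM in replicate 1 and 49.4 TPM in replicate 2, a mean of 46.3 ± 4.42 (SD, n = 2). The second transcript table, made from the reads without the aligned file, gave 52.0 and 55.4 TPM. Replicate 2 was the higher in both, and the gene ranked 1226 of 22015 nuclear protein-coding genes.

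The annotation holds 5 Ppargc1a transcripts, which differ in their first exon and in exon 7. Parts of these transcripts are printed here from the GENCODE M21 transcript sequences, because they set apart the proteins that each transcript can encode. The first pair are the coding parts of the proximal first exon (chr5:51553735-51553782) and of the distal first exon (chr5:51567630-51567665), with the start codon in capitals. The last is the extension of exon 7 (chr5:51490091-51490121), with an in-frame stop codon in capitals. All run 5′ to 3′ on the gene's strand.
Proximal first exon: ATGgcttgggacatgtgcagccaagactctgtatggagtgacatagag
Distal first exon: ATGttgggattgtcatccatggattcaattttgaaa
Extension of exon 7: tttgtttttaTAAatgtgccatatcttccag

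The proximal start serves Ppargc1a-203, Ppargc1a-201 and Ppargc1a-205. The distal start, 13804 bases further upstream, serves Ppargc1a-204 and Ppargc1a-202. Ppargc1a-203, of 6464 bases, encodes the full protein of 797 residues. In Ppargc1a-201 and Ppargc1a-204 exon 7 begins 31 bases earlier, and the stop codon printed above ends the reading frame. Ppargc1a-201 thus encodes 270 residues, of which the first 267 are those of the full protein, a truncated form known as NT-PGC-1alpha. GENCODE classes both transcripts as targets of nonsense-mediated decay. Ppargc1a-205 follows the full protein for 672 residues and ends at 696, and Ppargc1a-202 is a 488-base fragment that the annotation marks as incomplete.

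Ppargc1a-203 had the highest mean in both tables, with 17.1 and 19.1 TPM in the first transcript table and 18.0 and 20.2 TPM in the second. In replicate 1 of the second table the fragment Ppargc1a-202 was above it, at 19.1 TPM. Ppargc1a-203 held 39.1% ± 0.711 (SD, n = 2) of the gene's TPM in the first table and 74.0% ± 0.300 of its expected counts. The shares in TPM and in counts differ because a count spread over 6464 bases weighs less, per length, than one on a short fragment. Ppargc1a-201, the transcript of the truncated form, stood at 6.91 and 9.55 TPM in the first table and at 11.5 and 10.9 TPM in the second. Ppargc1a-205 was lower, at 4.39 and 1.66 TPM in the first table and 2.85 and 1.17 TPM in the second.

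Among transcripts that hold exon 7, those with the 31-base extension took 24.3% of the TPM in replicate 1 and 35% in replicate 2 of the first table. In the second table they took 36.8% and 44.0%, so transcripts with the short exon 7 held the larger share in both hearts and both tables. These are shares of whole transcripts and not of reads across exon 7. Ppargc1a-201 also lacks 3454 bases of Ppargc1a-203, against the 31 bases of the extension. The 2 tables gave means of 29.7% ± 7.52 and 40.4% ± 5.06 (SD, n = 2), and counts in the first table gave 17.3% ± 4.07. Neither Ppargc1a-201 nor Ppargc1a-204 holds a 31-base word that is absent from the gene's other transcripts, since each shares its extension with the other and its first exon with a further transcript. The division of reads between them is therefore an estimate of each program.

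From the distal start came 34.2% of the TPM in replicate 1 and 38.7% in replicate 2, and the second table gave 37.9% and 41.7%. Most of this lay on the 488-base fragment Ppargc1a-202, at 14.7 and 17.5 TPM with 178 and 240 expected counts in the first table and at 19.1 and 17.2 TPM in the second. In counts the distal start held 3.91% and 6.43% of the gene. Ppargc1a-204, the one long transcript of this start, was listed at 0 TPM in replicate 1 and at 1.60 TPM in replicate 2, and at 0.664 and 5.96 TPM in the second table. Among transcripts of at least 1000 bases the distal start therefore held 2.51% ± 3.55 (SD, n = 2) of the TPM. The share of the distal start thus rests mostly on a fragment, which has 97 bases outside the exons of Ppargc1a-203. Only 22 of its 31-base words occur in no other Ppargc1a transcript. That small number bears on the division between Ppargc1a-202 and Ppargc1a-204, which share the distal start.

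**Figure D2:**
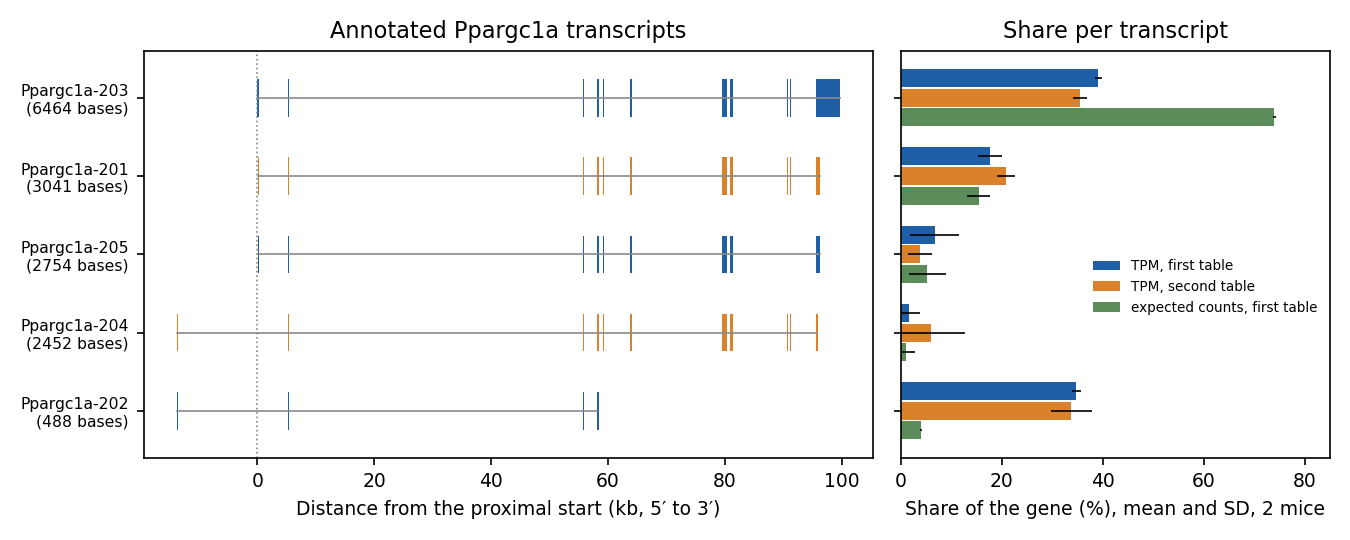
Left, exons of the 5 annotated Ppargc1a transcripts by distance from the proximal start in kilobases (5′ to 3′) and drawn in orange for the transcripts whose exon 7 carries the 31-base extension; short exons are widened to stay visible. Right, mean share of the gene in percent with SD over the 2 hearts. The fragment Ppargc1a-202 holds 34.8% of TPM in the first table but 4.03% of counts, and Ppargc1a-203 holds 39.1% of TPM and 74.0% of counts.

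Ppargc1b, on chromosome 18, encodes PGC-1beta, a coactivator of the same gene classes. Its level was 11.6 TPM in replicate 1 and 12.9 TPM in replicate 2, or 12.3 ± 0.898 (SD, n = 2). Within each library Ppargc1a stood 3.71-fold and 3.82-fold above it, a mean ratio of 3.77 ± 0.0846. In the second table the mean ratio was 3.8 ± 0.286, and over transcripts of at least 1000 bases it was 2.61 ± 0.0138, so Ppargc1a was the higher in each of these.

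The 2 tables disagreed on the Ppargc1b transcripts. Ppargc1b-202, which encodes 1014 residues, held 94.0% ± 0.327 (SD, n = 2) of the TPM in the first table and 50.8% ± 2.69 in the second. Ppargc1b-201, which encodes 1030 residues and has an additional 79-base exon after the first, was listed at 0 in both hearts in the first table and at 5.77 and 6.92 TPM in the second. The deposited bounds on its TPM in the first table reached 1.00 in replicate 1 and 1.40 in replicate 2, below the second table's values in both hearts.

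Pprc1 encodes PRC, the family member known as a coactivator induced by serum in growing cells, and lies at chr19:46044886-46072915 on the plus strand. Its level was 5.16 TPM in replicate 1 and 7.0 TPM in replicate 2, or 6.08 ± 1.30 (SD, n = 2). Replicate 2 was the higher by TPM, but after scaling for depth its counts were 0.961 of those of replicate 1. The 386-base fragment Pprc1-208 accounted for 0.410 TPM in replicate 1 and 2.60 TPM in replicate 2, on 3.62 and 26.2 expected counts. In the second table Pprc1-208 was listed at 0 and the gene stood at 4.88 and 4.83 TPM. Pprc1 shares 177 exonic bases with Ldb1 on the opposite strand, which stood at 16.5 and 17.8 TPM. Ppargc1a exceeded Pprc1 by 8.36-fold and 7.05-fold in the gene table and by 10.7-fold and 11.5-fold in the second table.

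The 3 coactivators are related proteins. In a global alignment PGC-1alpha and PGC-1beta were identical at 281 of 679 aligned residues, or 41.4%. PRC was identical to PGC-1alpha at 36.9% of aligned residues and to PGC-1beta at 30.8%. The short leucine motif LxxLL, through which coactivators bind nuclear receptors, was found once in PGC-1alpha at residue 142, at residues 140, 156 and 343 of PGC-1beta and at residues 159 and 1155 of PRC. The truncated protein of Ppargc1a-201 keeps the motif at residue 142. The same letters also occurred in members that are not coactivators, at residues 11 and 399 of TWNK, 550 of POLRMT and 54 of POLG.

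Nrf1 encodes nuclear respiratory factor 1, a DNA-binding factor of respiratory chain promoters that is distinct from the protein of Nfe2l1, which is also called NRF1. The gene lies at chr6:30047988-30153458 on the plus strand and was among the lowest of the 10, at 5.39 TPM in replicate 1 and 4.92 TPM in replicate 2, or 5.16 ± 0.332 (SD, n = 2). The second table gave 10.5 and 7.66 TPM, a mean 1.76 times that of the gene table. No other member differed by 1.5-fold between the 2 sources. Among 10835 detected nuclear protein-coding genes with a mean of at least 50 expected counts, 10.8% were at least 1.5-fold higher in the second table and 1.11% at least 1.5-fold higher in the gene table.

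Nrf1 has 20 annotated transcripts, the most of any member, with 346 and 376 expected counts to divide among them. Nrf1-211, which encodes 503 residues, had the highest mean share in the first table, 24.8% ± 11.4 (SD, n = 2) of the TPM, although Nrf1-210 and the incomplete Nrf1-216 were above it in replicate 1, at 1.4 TPM each. Nrf1-218, a 486-base incomplete transcript, led the second with 27.9% ± 2.14 and was listed at 0 in the first. In counts, 92.4% ± 2.73 of the first table and 88.1% ± 5.05 of the second lay on protein-coding transcripts of at least 1000 bases. By counts, both tables thus assign most of Nrf1 to long coding transcripts and differ on which. In TPM such transcripts held 76.8% ± 9.23 in the first table and 52.3% ± 14.2 in the second.

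The DNA-binding partners of the coactivators and related factors were all detected, 20 of 20, with a median of 17.9 TPM in replicate 1 and 19.3 TPM in replicate 2. Nfe2l1 was highest at 158 ± 12.2 TPM (SD, n = 2). Perm1, a muscle regulator induced by PGC-1 and the estrogen-related receptors, followed at 124 ± 4.91 TPM. Esrra, which encodes the receptor ERRalpha, stood at 66.5 ± 3.67 TPM and the muscle factor Mef2a at 48.3 ± 4.51 TPM. Nrf1, at 5.16 TPM, lay below the median of this list. All 17 coregulators and modifying enzymes of PGC-1 were detected too, with a median of 16.8 and 17.7 TPM. The kinase Akt1 led them at 75.8 ± 4.72 TPM, followed by the phosphatidate phosphatase and coactivator Lpin1 at 66.2 ± 0.877 TPM, the corepressor Ncor1 at 51.2 ± 0.636 TPM and the arginine methyltransferase Prmt1 at 34.9 ± 3.72 TPM.

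Tfam, at chr10:71225464-71238280 on the minus strand, encodes the protein that coats mitochondrial DNA and activates its promoters. Its level was 23.3 TPM in replicate 1 and 25.9 TPM in replicate 2, or 24.6 ± 1.82 (SD, n = 2). It was 31 and 33.6 TPM in the second table. Both sources placed Tfam second among the 10 genes, with replicate 2 slightly the higher.

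Most Tfam counts and most Tfam TPM sat on different transcripts. Tfam-201, of 4167 bases, encodes the full 243-residue protein and has a long 3′ end. It held 67.5% ± 3.58 (SD, n = 2) of the expected counts but 22.6% ± 1.90 of the TPM, at 5.59 and 5.51 TPM, against 6.0 and 6.02 TPM in the second table. The remaining TPM lay on transcripts under 1000 bases, and the tables assigned it differently. In the first table Tfam-202 led at 7.87 and 14.3 TPM. In the second table Tfam-203 led at 14.4 and 17.6 TPM, while the first listed it at 0.25 and 0.20 TPM.

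These transcripts differ in the amino end of the protein, where TFAM carries its mitochondrial targeting sequence. Tfam-203 starts at another first exon and encodes 199 residues, identical to the full protein from its residue 45 onward. Tfam-202 encodes 215 residues, of which the last 209 are those of the full protein. Tfam-202 holds only 28 words of 31 bases found in no other Tfam transcript and Tfam-203 holds 219, against 3405 in Tfam-201. For Tfam-201 the deposited bounds of the first table, 5.02 to 5.92 TPM in replicate 1 and 4.99 to 5.82 TPM in replicate 2, were narrow. For Tfam-202 they ran from 1.95 to 11.9 TPM in replicate 1 and from 9.24 to 16.1 TPM in replicate 2.

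Tfb1m and Tfb2m encode related proteins that descend from ribosomal RNA methyltransferases, of which TFB2M now serves as the initiation factor of mitochondrial transcription. Their annotated proteins, of 345 and 396 residues, were identical at 77 of 307 aligned residues, or 25.1%. Tfb2m, at chr1:179528055-179546267 on the minus strand, stood at 19.5 TPM in replicate 1 and 22.3 TPM in replicate 2, or 20.9 ± 1.99 (SD, n = 2). Tfb1m, at chr17:3519256-3557781 on the minus strand, stood at 3.79 and 4.23 TPM, or 4.01 ± 0.311. The initiation factor was thus 5.15-fold above the methyltransferase in replicate 1 and 5.28-fold in replicate 2, a mean of 5.21 ± 0.0928. The ratio was 5.34 ± 0.256 in the second table and 4.06 ± 0.193 over transcripts of at least 1000 bases.

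Each gene had 1 leading coding transcript in both tables. Tfb1m-201 held 98.9% ± 0.619 (SD, n = 2) of the TPM in the first table and 98.5% ± 0.514 in the second. Tfb2m-201 held 78.0% ± 4.99 and 71.6% ± 4.81, with 93.8% ± 2.55 of the expected counts. What remained of Tfb2m lay on noncoding fragments such as Tfb2m-205, of 458 bases, at 2.63 and 3.12 TPM. Tfb1m had the fewest counts of the 10 genes, 155 and 195, and shares 142 exonic bases with Tiam2 on the opposite strand.

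Polrmt, at chr10:79736123-79746581 on the minus strand, encodes the mitochondrial RNA polymerase, a single-subunit enzyme. Its level was 17.8 TPM in replicate 1 and 17.1 TPM in replicate 2, or 17.5 ± 0.481 (SD, n = 2). Polrmt stood at 14.6 and 16.1 TPM in the second table. Polrmt and Nrf1 were the 2 members with the lower TPM in replicate 2. Polrmt-201, which encodes 1207 residues, led in both tables with 37.1% ± 1.7 of the TPM in the first and 57.9% ± 3.52 in the second. The 374-base fragment Polrmt-205 took 31.8% ± 6.54 in the first table on 41.3 and 60.4 expected counts, and was listed at 0 in the second. All but 1 base of its exons lies inside exons of Polrmt-201.

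Tfam exceeded Polrmt by 1.31-fold in replicate 1 and 1.51-fold in replicate 2, a mean of 1.41 ± 0.143 (SD, n = 2). The ratio was 2.10 ± 0.0227 in the second table. Over transcripts of at least 1000 bases the direction turned, to a ratio of 0.534 ± 0.0134, because most Tfam TPM lies on shorter transcripts. Which of the pair had more transcripts therefore depended on whether short annotated transcripts were counted.

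Among 19 other genes of mitochondrial transcription and RNA processing, 18 were detected, with a median of 10 TPM in replicate 1 and 10.4 TPM in replicate 2. Fastk, which takes part in mitochondrial RNA processing, was highest at 121 ± 7.25 TPM (SD, n = 2). Hsd17b10, a subunit of the mitochondrial ribonuclease P, followed at 90.2 ± 6.0 TPM. Slirp and Lrpprc, whose proteins form an RNA-stabilising complex, stood at 63.1 ± 2.25 and 54.0 ± 3.99 TPM. Each of these 4 processing genes lay above Polrmt, Tfam and Tfb2m in both hearts. The exception to detection was Mterf1b, at 1.09 and 0.760 TPM, named here after its values were seen, whose reads may be shared with its near-identical copy Mterf1a.

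Polg, at chr7:79446231-79466362 on the minus strand, encodes the catalytic subunit of the mitochondrial DNA polymerase. Its level was 20.2 TPM in replicate 1 and 25.5 TPM in replicate 2, or 22.8 ± 3.76 (SD, n = 2). Values were closer in the second table, at 26.9 and 28.2 TPM. The scaled counts of the hearts were closer too, with replicate 2 at 1.01 times replicate 1. The 408-base fragment Polg-217 accounted for 1.28 TPM in replicate 1 and 4.94 TPM in replicate 2, and was listed at 0 in the second table.

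Polg was the member with the smallest share assigned to annotated protein-coding transcripts of at least 1000 bases. Polg-213, classed as a target of nonsense-mediated decay, had the highest mean, at 5.63 and 6.85 TPM in the first table and 5.89 and 6.96 TPM in the second. Polg-203, classed as a retained intron, stood at 6.24 and 4.82 TPM in the first table, above Polg-213 in replicate 1 and below it in replicate 2. In replicate 1 of the second table the fragment Polg-211 was the highest, at 5.96 TPM. Polg-201, the transcript that encodes all 1217 residues, stood at 1.13 and 1.41 TPM, or 5.57% ± 0.0481 (SD, n = 2) of the gene's TPM and 14.6% ± 1.83 of its counts. It held 5.57% ± 0.0576 of the TPM in the second table, so the share was alike in both.

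In the annotation Polg-201 is the 1 protein-coding Polg transcript of at least 1000 bases. Its 7837 bases include a 3′ end that the other long transcripts lack. The gene shares 921 exonic bases with Fanci on the opposite strand, which was at 0.06 and 0.03 TPM. The exons of Polg-213 lie wholly within those of Polg-201, and Polg-203 has 78 bases outside them. Of the 31-base words of these transcripts, 3314 occur only in Polg-201, 26 only in Polg-213 and none only in Polg-203. The division of reads between the 3 is therefore an estimate of each program, and the share on Polg-201 is not a direct count of coding RNA. The other 7 protein-coding transcripts among the 18 annotated for Polg are marked incomplete and are under 1000 bases.

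Over all members, 1 of 10 had a dominant transcript by TPM that was not protein coding, which was Polg, against 7.05% of 10613 nuclear protein-coding genes with at least 2 transcripts and 50 expected counts. The dominant transcript by TPM differed between the tables for 2 of 10 members, Tfam and Nrf1, against 23.7% of the same genes. Both counts lie near the background shares.

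**Figure D3:**
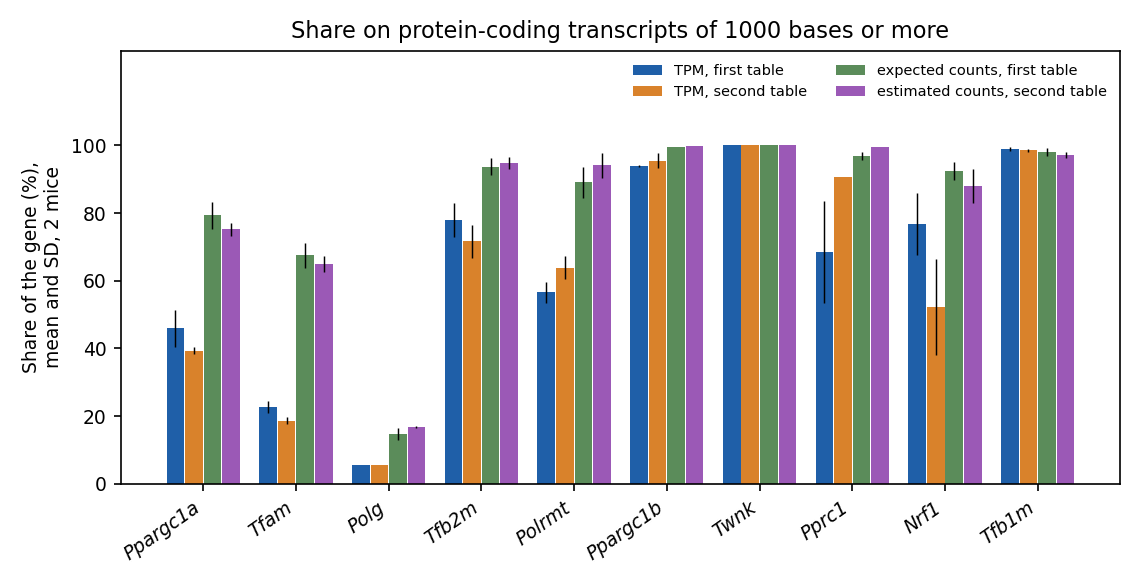
Share of each gene's TPM or counts, in percent with SD over the 2 hearts, that lies on protein-coding transcripts of at least 1000 bases, in both transcript tables. Twnk, Tfb1m and Ppargc1b lie at 94.0% or more by every measure, Tfam rises from 22.6% of TPM to 67.5% of counts in the first table, and Polg stays at 5.57% of TPM and 14.6% of counts.

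Polg2 encodes the accessory subunit that clamps POLG to DNA. At 1.52 TPM in replicate 1 and 1.60 TPM in replicate 2 it was far below the sum of all Polg transcripts. Polg stood 13.3-fold above Polg2 in replicate 1 and 15.9-fold in replicate 2, a mean of 14.6 ± 1.88 (SD, n = 2). Without short transcripts the ratio was 9.77 ± 0.637, and the second table gave 17.0 ± 0.106. Each of these ratios counts Polg transcripts that are not classed as protein coding. Polg-201 alone, which encodes all 1217 residues, stood at 1.13 and 1.41 TPM in the first table, where Polg2 is the whole gene. The deposited bounds overlapped in both hearts. They ran from 0.867 to 1.34 and from 1.13 to 1.66 TPM for Polg-201. For Polg2 they ran from 1.29 to 2.17 and from 1.32 to 2.23 TPM. The division of reads between Polg-201 and the transcripts nested in it is also an estimate.

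Twnk, at chr19:45005663-45012762 on the plus strand, stood at 11.2 TPM in replicate 1 and 12.3 TPM in replicate 2, or 11.8 ± 0.778 (SD, n = 2). The second table gave 11.7 and 12.9 TPM, the closest match between the sources among the 10 genes. Twnk-201, which encodes the full helicase of 685 residues, held 97.7% ± 2.01 of the TPM. Twnk-202, which begins at another first exon and encodes the last 230 residues, was at 0.10 and 0.46 TPM. The gene shares 507 exonic bases, 12.6% of its exonic sequence, with Mrpl43 on the opposite strand, which stood at 18.95 and 20.5 TPM. Whether counting used strand is not given in the sources used here, so part of the Twnk reads could belong to Mrpl43, and the same holds for Pprc1 and Ldb1. Polg exceeded Twnk by 1.8-fold and 2.07-fold in replicates 1 and 2, and by 1.22 ± 0.0534 over transcripts of at least 1000 bases. These ratios also count Polg transcripts that are not classed as protein coding. Polg-201 alone stood at 1.13 and 1.41 TPM, against 11.1 and 11.8 TPM for Twnk-201.

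The 13 other genes of mitochondrial DNA replication and the nucleoid had the lowest median of the lists, 5.68 TPM in replicate 1 and 6.69 TPM in replicate 2, and 10 of 13 were detected. The proteases and chaperones of the nucleoid were highest, Lonp1 at 48.3 ± 2.82 TPM (SD, n = 2) and Clpx at 43.1 ± 0.905 TPM. The nuclease Endog stood at 35.3 ± 0.728 TPM and the membrane ATPase Atad3a at 15.6 ± 0.948 TPM. Below 1 TPM in both hearts were the nuclease Exog at 0.960 and 0.770 TPM, the primase Primpol at 0.780 and 0.920 TPM and the helicase and nuclease Dna2 at 0.140 and 0.110 TPM. Polg and Twnk both lay above the median of this list in both hearts.

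Of 11 genes that supply nucleotides for mitochondrial DNA, 10 were detected, with a median of 12.7 and 12.9 TPM. The succinate-CoA ligase subunits Sucla2, at 304 ± 10.2 TPM (SD, n = 2), and Suclg1, at 198 ± 7.46 TPM, led this list. Both also serve the citric acid cycle. The inner membrane protein Mpv17 stood at 19.3 ± 0.141 TPM and Rrm2b, the small ribonucleotide reductase subunit of non-dividing cells, at 15.2 ± 1.60 TPM. Tymp, which degrades thymidine, was at 0.280 and 0.180 TPM.

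The median of the genes these factors are known to act on lay above the median of the factors. All 15 nuclear targets were detected, with a median of 241 TPM in replicate 1 and 267 TPM in replicate 2, against 14.7 and 15.0 TPM for the 10 genes. The lowest targets, Ucp3 at 15.4 TPM, Tomm70a at 16.4 TPM and Tomm20 at 34.6 TPM, lay below Ppargc1a, and were named after their values were seen. Atp5b, a catalytic subunit of ATP synthase, stood at 3375 ± 190 TPM (SD, n = 2). The cytochrome oxidase subunits Cox4i1 and Cox5b stood at 1840 ± 88.9 and 849 ± 89.2 TPM, and Uqcrc1 of complex III at 901 ± 38.7 TPM. Among the 15 protein and ribosomal RNA genes of mitochondrial DNA the median was 9156 and 9498 TPM. mt-Rnr2 and mt-Rnr1, the ribosomal RNAs, were highest at 119427 ± 1153 and 63207 ± 923 TPM, followed by mt-Co1 at 37476 ± 806 and mt-Cytb at 16153 ± 429 TPM. Transcripts of mitochondrial DNA were thus measured in a library reduced for ribosomal RNA, and how far that step acted on mt-Rnr1 and mt-Rnr2 is not given in the sources used here.

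**Figure D4:**
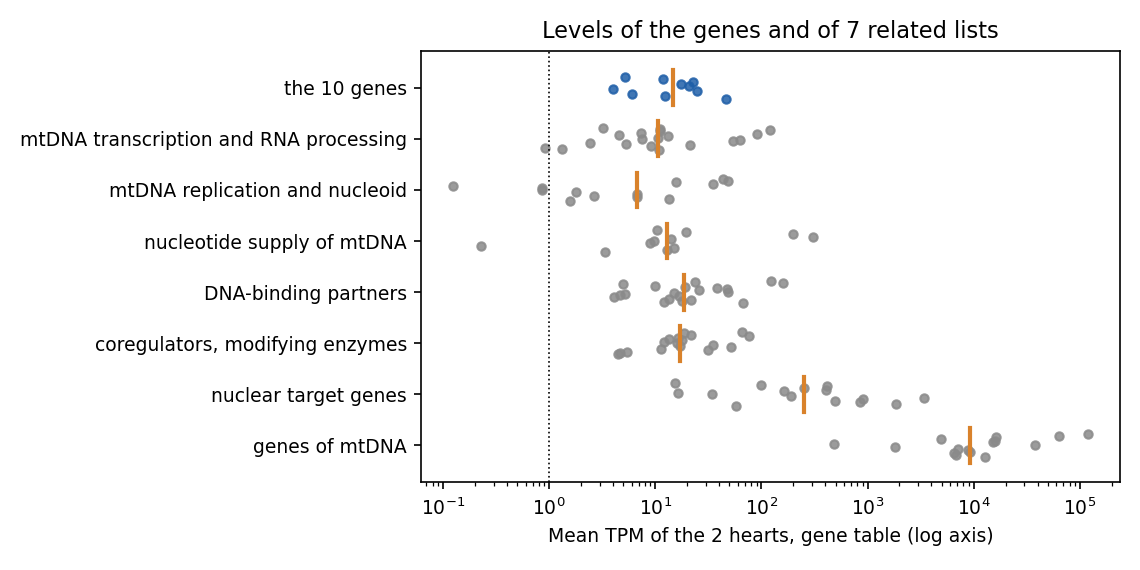
Mean TPM of the 2 hearts (log axis) for the 10 genes (blue) and the genes of 7 related lists (grey); orange bars are medians and the dotted line is 1 TPM. The 10 genes have a median of 14.9 TPM, between 6.67 TPM for replication and nucleoid genes and 254 TPM for nuclear target genes.

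Motifs of the partner factors were counted in RefSeq promoter windows (GRCm38.p6) that run from 250 bases before to 50 bases after an annotated start. Such windows exist for 9 of the members, 11 in all, since Nrf1 and Twnk have a second start. The core of the NRF1 motif, GCGCANGCG, on either strand occurred in 2 of the 11 windows, Tfb2m and Polrmt, against 6.25% of all 32851 windows. The ETS motif bound by GABP, CCGGAAGT, occurred in 3, those of Polg, Tfam and Twnk, against 3.89%. Matches are descriptions of letters and show no binding.

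The stretches around those matches are printed from the reference sequence, and the alleles of the hybrid mice were not examined. In that sequence the stretches place the motif of a PGC-1 partner beside the start of 5 of the members. Each runs 5′ to 3′ on the gene's own strand, with the motif or its reverse complement in capitals. The Tfam stretch lies at chr10:71238074-71238101 and the Polg stretch at chr7:79466294-79466321. The Twnk stretch lies at chr19:45006437-45006464, the Tfb2m stretch at chr1:179546246-179546274 and the Polrmt stretch at chr10:79746568-79746596.
Tfam, ETS: ctgccgcggaCCGGAAGTccgggcttcc
Polg, ETS: aggacctcacCCGGAAGTccctctgcac
Twnk, ETS: ctaaccggtgACTTCCGGttccggggtt
Tfb2m, NRF1 core: ctaggtcgttCGCATGCGCcattcgtaat
Polrmt, NRF1 core: ctgcaggcggCGCGTGCGCgtgcgcactg

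The first base of the motif lay 47 bases before the RefSeq start of Tfam, 38 before that of Polg, 111 before that of Twnk, 5 before that of Polrmt and 12 after that of Tfb2m. A second copy of the core in Polrmt overlapped the first. None of the 11 windows held the motif of the estrogen-related receptors (TCAAGGTCA, in 0.423% of all windows), the cAMP response element (TGACGTCA, 1.79%) or the MEF2 motif (CTAAAAATA, 0.517%). For Ppargc1a the table holds the distal start only, so its proximal start was not examined. That distal window held 5 CpG in 300 bases at 48.7% GC. Over the 11 windows CpG ran from 2 in the second Nrf1 window to 43 in the first, against a median of 7 over all windows.

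Between the 2 hearts the members differed little. Counts were scaled by edgeR's TMM factors and given as the log2 ratio of replicate 2 over replicate 1, with an exact Clopper-Pearson interval at 95% that covers counting error only. None of the 10 genes was 1.5-fold apart in either direction, and the ratios ran from -0.11 for Nrf1 to 0.12 for Ppargc1a. Among the 12453 genes with a mean of at least 50 expected counts, the share past 1.5-fold was 0.827% with replicate 2 the higher and 1.25% with replicate 1 the higher. With 1 library per heart there is no replicate check on a single ratio, and no p-value is given.

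After scaling, 7 of the members were higher in replicate 2, against 52.1% of all those genes. Their median log2 ratio was 0.05, where the median over all genes was 0.01. Ppargc1a had the one interval that excluded 0, from 0.06 to 0.17, on the most counts of the 10. The share of all those genes with such an interval is not given here, so this call has no background beside it. From the 5th to the 95th percentile the ratios of all those genes ran from -0.31 to 0.25, a range that held Ppargc1a. Ppargc1b had nearly the same ratio, 0.11, with an interval from -0.00406 to 0.22 on fewer counts. Tfb1m, with the fewest counts, had the widest interval, from -0.21 to 0.41. Scaling by the spike-in total moved the median of all genes to 0.18, and all 10 members were then higher in replicate 2.

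**Figure D5:**
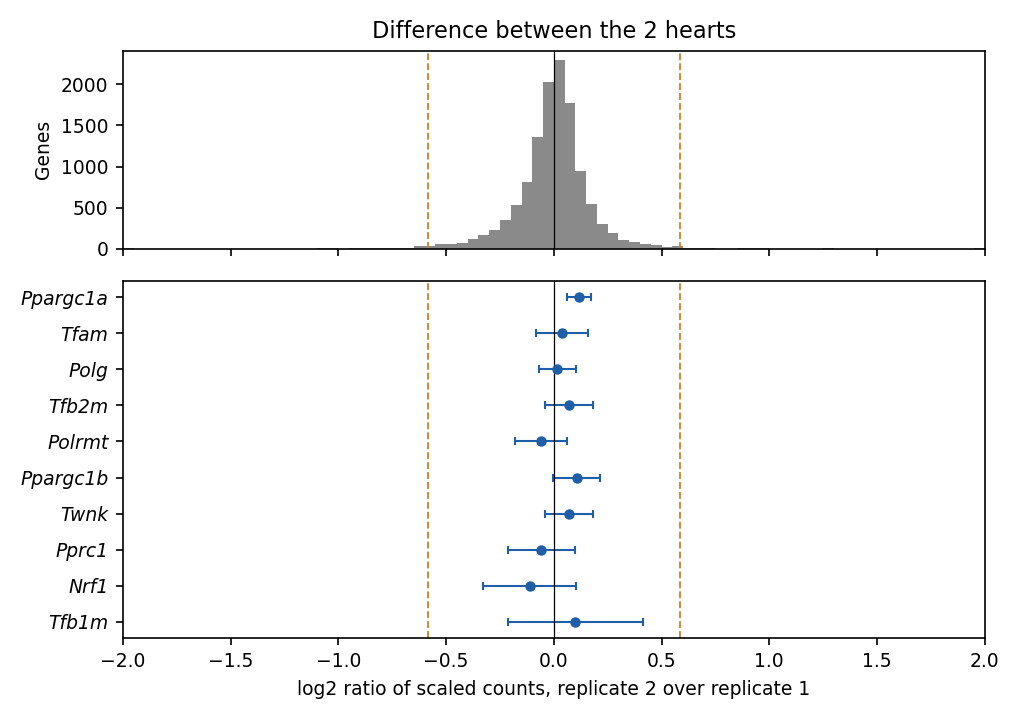
Top, histogram of log2 ratios, replicate 2 over replicate 1, of scaled counts for 12453 genes, with values beyond the axis placed in the end bins. Bottom, the same ratio for each of the 10 genes with its 95% counting interval; dashed lines mark 1.5-fold. The 10 genes lie between -0.11 and 0.12, inside both lines.

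The hearts did differ in markers of other cells. All 4 red blood cell markers, Hbb-bs, Hba-a1, Alas2 and Slc4a1, were more than 1.5-fold higher in replicate 1, with a summed level of 13712 TPM there against 4292 TPM in replicate 2. Of 4 adipocyte markers, 3 were more than 1.5-fold higher in replicate 2, which were Adipoq, Plin1 and Ucp1. The last, the uncoupling protein of brown fat, stood at 1.43 and 6.95 TPM. The sum of the adipocyte markers was 20.3 TPM in replicate 1 and 31.8 TPM in replicate 2. Brown fat is also rich in Ppargc1a, and the part of these cells in the ratios above was not tested. All 6 cardiomyocyte markers were present, with sums of 23095 and 25471 TPM, and the 4 skeletal muscle markers summed to 0.350 and 0.580 TPM, with Myh4 listed at 0. Summed markers of endothelial cells were 160 and 167 TPM, of fibroblasts 182 and 199 TPM, of mural cells 170 and 195 TPM and of macrophages 40.5 and 41.4 TPM. Of lymphocyte and leukocyte markers, Ptprc stood at 3.06 and 2.24 TPM, Cd79a at 1.05 and 0.44 TPM and Cd3e at 0.26 and 0.08 TPM.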

How the data were processed

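Per the labels, each library was made from total heart RNA of 1 mouse. For each, the authors deposited a gene table and a first transcript table (expected counts, TPM, and FPKM, per the file headers) and a second transcript table (estimated counts and TPM, per the file headers). The build was mm10 with GENCODE M21, per the deposited file descriptions. The aligner, quantifiers, their versions and the level of the deposited TPM bounds were not given in the sources used here. Spike-in RNAs and other entries that are not Ensembl genes are included in the printed totals of expected counts. Ensembl genes alone summed to 38963569 in replicate 1 and 44321172 in replicate 2.

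Levels are means ± SD of TPM over 2 mice. Expected counts were rounded, and edgeR 4.0.16 gave TMM factors. Its common biological coefficient of variation was 6.63% between the hearts. Depth was 39177981 and 44544839 expected counts. The ratio and interval code was tested on simulated data. Proteins were translated from GENCODE transcripts and aligned with Biopython 1.88 (BLOSUM62, free end gaps).

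The members, gene lists and rule for named genes (all members and ratio partners, the 4 highest of each list, those under 1 TPM in both mice, those past 1.5-fold, and dominant transcripts) were chosen with earlier results of these data known. The added comparison with transcripts of at least 1000 bases was chosen after seeing the data. No likeness of pattern was sought, since 2 samples of 1 group hold no pattern.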

Additional observations from a re-analysis of the deposited data

How the results depend on the processing

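All 10 genes were detected at 0.5 TPM, in the second table and in either heart alone, and 8 of 10 at 5 TPM. No gene was 1.5-fold apart between the hearts under the total count, DESeq2 size factors, the spike-in total, a prior count of 2 or the second table. Looser count filters and a 2-fold limit could not change this. All 10 genes already passed the filter, and none was 1.5-fold apart. In the second table the ratio of Ppargc1a to Pprc1 was 11.1, of Tfb2m to Tfb1m 5.34, of Polg to Polg2 17.0, of Tfam to Polrmt 2.10 and of Polg to Twnk 2.24. By expected counts, not corrected for length, Tfb2m to Tfb1m was 7.74, Polg to Polg2 30.2, Polg to Twnk 1.7, and Tfam to Polrmt turned to 0.967. By posterior mean TPM, Ppargc1a to Pprc1 was 6.48, Tfb2m to Tfb1m 5.08 and Polg to Twnk 2.19. Over transcripts of at least 1000 bases, chosen after seeing the data, Ppargc1a to Ppargc1b was 2.61, Tfb2m to Tfb1m 4.06, Polg to Polg2 9.77, Polg to Twnk 1.22, and Tfam to Polrmt turned to 0.534. The distal start of Ppargc1a held 39.8% in the second table, 5.17% of expected counts and 2.51% among transcripts of at least 1000 bases. The extended exon 7 held 40.4% in the second table and 17.3% of expected counts. Joining starts within 100 or 1000 bases left the 2 starts as they were. With either heart left out, Ppargc1a to Ppargc1b ran from 3.71 to 3.82, Ppargc1a to Pprc1 from 7.05 to 8.36, Tfb2m to Tfb1m from 5.15 to 5.28, Polg to Polg2 from 13.3 to 15.9, Tfam to Polrmt from 1.31 to 1.51 and Polg to Twnk from 1.8 to 2.07. The distal start then ran from 34.2% to 38.7% and the extended exon 7 from 24.3% to 35%. The level moved by more than the SD between the hearts for 8 of 10 genes in the second table. Over the genes compared, the second table stood at a median of 1.15 times the gene table. A rise there was thus not particular to these 10 genes. Polrmt and Pprc1 were instead lower there, at 0.879 and 0.798 times the gene table, and the other members were higher. Without short transcripts 7 of 10 moved, and by posterior mean TPM 1 of 10 moved. In FPKM 9 of 10 moved. FPKM differs from TPM by 1 factor per library, so this is a change of unit. Rescaling TPM to nuclear protein-coding genes, likewise a change of unit, raised all 10, with Ppargc1a at 118 and Tfb1m at 10.3. No paired analysis was possible because there is 1 group. Depth limits the transcript shares of Nrf1, with 346 and 376 expected counts over 20 transcripts.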
